A study of Saccharomyces cerevisiae with 24 samples.

Results

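This account covers the budding yeast strain without histone H2A.Z, the htz1 deletion, set against the wild type by Single Molecule Intron Tracking (SMIT). The 4 libraries, 2 of each strain, were chosen by their strain labels out of 24 samples in the series. The wild type was mating type MATa with his3Δ1, leu2Δ0, met15Δ0 and ura3Δ0, and the deletion strain carried all of these markers together with htz1Δ::KanMX. Both grew untreated in rich YPAD medium at 30 °C to an OD600 between 0.5 and 0.8. The labels do not say whether the libraries of a strain came from separate cultures or clones, so the tests measure only the spread between libraries, which may be technical. Where they serve for comparison, the npl3 and gbp2 deletion strains (4 libraries) lack Npl3 or Gbp2, both RNA-binding proteins that join nascent transcripts. These strains, and the rtt103, tho2 and pub1 deletions named later for their 3' end positions, were untreated, carry the same markers and have their gene replaced by KanMX in the same way. The fits shared their estimate of spread across the 14 libraries of the deletion series.

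HTZ1 encodes H2A.Z, a variant of histone H2A that the SWR1 remodelling complex places in the nucleosomes beside promoters. It is not essential for growth of budding yeast, and genetic studies in budding and fission yeast have linked it to the splicing of introns. Splicing takes place largely while RNA polymerase II is still transcribing. SMIT follows this in nascent RNA taken from chromatin: an adapter joined to the RNA 3' end marks where the polymerase stood, and the rest of the read shows whether the intron upstream is still present. Each gene thus has a splicing curve, the fraction of spliced reads at each distance past the 3' splice site. The question was in which genes, and at which polymerase positions, that curve differed without H2A.Z.

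Reads were listed for 53 intron-containing genes, of which 48 were measured deeply enough in all 14 libraries. HTZ1 is not among them, so the deletion could not be checked in these reads. Reads past the splice site numbered 2839057 and 987590 in wild-type replicates 1 and 2, and 1061004 and 1151030 in htz1 replicates 1 and 2. The library names place the second replicate of both strains in the same name series and on the same lane, whereas the first replicates bear different series names. The comparison of the second replicates is therefore made within a name series, and strain and series cannot be told apart in the first replicates. The wild-type libraries themselves lay apart: the median over genes of the fraction spliced was 0.689 in replicate 1 and 0.820 in replicate 2, while htz1 gave 0.708 and 0.753. PCR reads are not independent molecules, so intervals from counting would cover counting error only.

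No gene passed the test for a different fraction spliced in htz1. The test summed a gene's reads over all positions past the splice site, so a shift of the 3' ends can also move its log2 odds ratio. With edgeR's quasi-likelihood test of the interaction of strain and splicing state, 0 of 48 genes (0%) were called at an adjusted p under 0.05, and 0 had an unadjusted p under 0.05. DESeq2 also called 0, with 1 gene at an unadjusted p under 0.05. The smallest adjusted p by edgeR was 0.891, and the log2 odds ratios had a median of -0.03, with 24 genes below 0 and 24 above. In simulated data of this design the test recovered 9.38% of genes changed by a log2 odds ratio of 2 and 81.2% of those changed by 4, so smaller differences would mostly have been missed at this number of libraries.

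For the levels of single genes, the fraction spliced was averaged over 30 nt bins of polymerase position with equal weight, so that a shift of the 3' ends along a gene does not itself move the value. The median difference, htz1 minus wild type, was -0.0125. It was -0.0074 for the first replicates, with 25 of 48 genes lower, and -0.0099 for the second, with 36 lower. These differences are smaller than the median difference of -0.0447 between the wild-type libraries. Those libraries bear different series names, so their gap is no measure of the spread within a name series. The exact permutation test of the library medians gave p = 1 (two-sided, n = 2 against 2), and this design allows no p below 0.333. The groups overlapped in 41 genes. In 4 genes (8.33%) both htz1 libraries lay below both wild-type libraries, and in 3 genes (6.25%) above.

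The 4 genes with lower values in both htz1 libraries were RPO26, SEC27, YPR063C and ECM33. RPO26 (YPR187W, chromosome XVI), which encodes a subunit shared by all the nuclear RNA polymerases, had fractions of 0.733 and 0.719 in the wild type and 0.627 and 0.655 in htz1, replicates 1 and 2 in that order. The means were 0.726 ± 0.00936 and 0.641 ± 0.0196 (SD, n = 2). Among the genes that were lower in both replicate numbers this was the largest difference, -0.0851, yet the fitted log2 odds ratio of -0.58 ± 0.69 (SE, adjusted p = 0.891 by edgeR) was within its error. SEC27 (YGL137W, chromosome VII), a subunit of the coatomer coat of Golgi vesicles, had 0.885 and 0.886 in the wild type and 0.799 and 0.855 in htz1. ECM33 (YBR078W, chromosome II), a cell wall protein, had 0.933 and 0.936 against 0.868 and 0.919. In both genes the wild-type libraries were almost equal and htz1 replicate 1 was the lowest. For ECM33 the first replicates of npl3 and gbp2 were low as well, at 0.854 and 0.872. Their second replicates had 0.946 and 0.936. YPR063C (chromosome XVI) had 0.675 and 0.719 against 0.628 and 0.672, so that the gap between its groups was narrower than the gap within either.

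Of the 16 genes lower in both replicate numbers, the other members with the largest differences had groups that overlapped, and htz1 replicate 1 was the lowest library in each. SEC14 (YMR079W, chromosome XIII), the phosphatidylinositol transfer protein of Golgi traffic, had 0.859 and 0.874 in the wild type and 0.718 and 0.867 in htz1. RPP1B, a ribosomal stalk protein, had 0.869 and 0.919 against 0.767 and 0.894. NSP1, a nuclear pore protein, had 0.805 and 0.835 against 0.698 and 0.819. In these genes htz1 replicate 2 came close to the wild type. For NSP1 the npl3 libraries had 0.681 and 0.826 and the gbp2 libraries 0.741 and 0.729. RUB1, a ubiquitin-like modifier, RFA2, a subunit of the single-strand DNA-binding complex, and PRE3, a catalytic subunit of the proteasome, differed by -0.0606, -0.0478 and -0.0333 on average. ACT1 (YFL039C, chromosome VI), the actin gene, had 0.944 and 0.985 in the wild type and 0.926 and 0.976 in htz1, a difference that is smaller than the gap within either strain.

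Only UBC4, PMI40 and GLC7 were higher in htz1 in both replicate numbers, and in each both htz1 libraries lay above both wild-type libraries. UBC4 (YBR082C, chromosome II), a ubiquitin-conjugating enzyme for short-lived and abnormal proteins, had 0.493 and 0.542 in the wild type and 0.814 and 0.648 in htz1. Its mean difference of 0.214 was the largest of any gene in size, but htz1 replicate 1 was far above replicate 2, and the log2 odds ratio was 1.54 ± 1.04 (SE, 95% interval -0.77 to 3.85, adjusted p = 0.891 by edgeR). The npl3 libraries had 0.450 and 0.743 for UBC4 and the gbp2 libraries 0.768 and 0.677, so 3 of these 4 also lay above the wild type. PMI40 (YER003C, chromosome V), phosphomannose isomerase, had 0.950 and 0.952 in the wild type and 0.997 and 0.970 in htz1. GLC7 (YER133W, chromosome V), the catalytic subunit of protein phosphatase 1, had 0.992 and 0.995 against 0.9998 and 0.999. It was spliced almost completely in all 4 libraries, and its log2 odds ratio of 3.71 ± 1.71 (SE) rests on few unspliced reads. For GLC7 the npl3 libraries had 0.9990 and 0.9987 and the gbp2 libraries 0.99996 and 0.9969, so these also lay above both wild-type libraries.

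**Figure D1:**
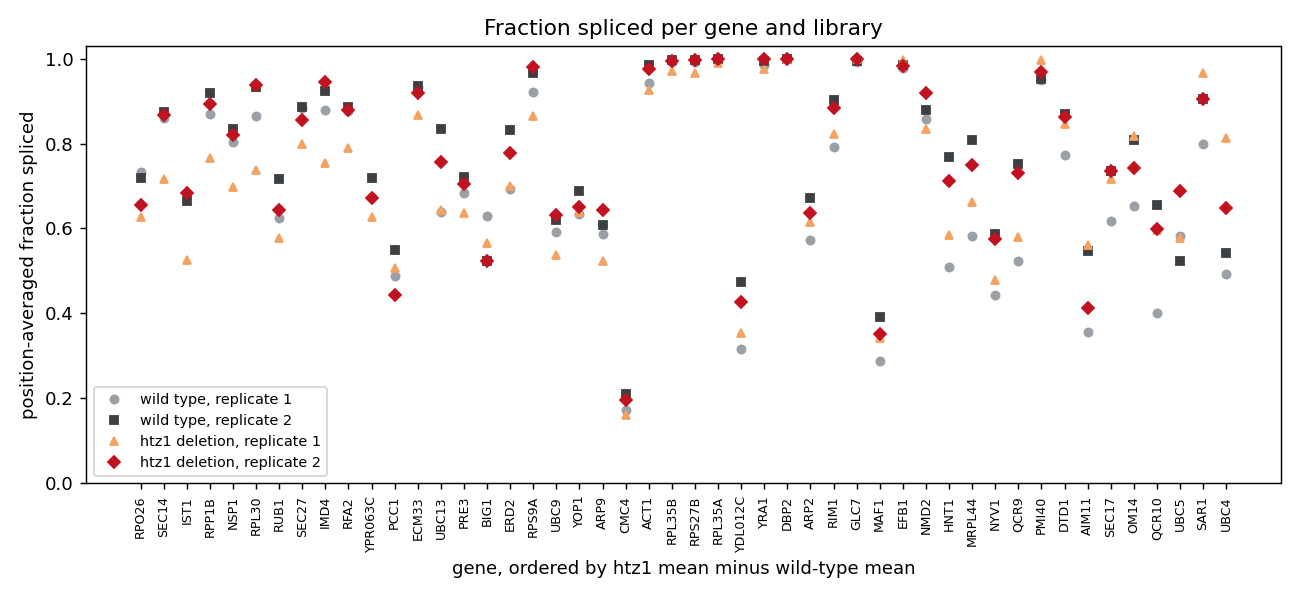
Position-averaged fraction spliced (vertical axis, 0 to 1) of 48 genes in each of the 4 libraries, ordered by the mean of htz1 minus the mean of the wild type. RPO26 stands at the left end with a difference of -0.0851 and UBC4 at the right end with 0.214, and in 41 genes the points of the strains overlap.

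The curves were then compared by polymerase position, in zones of 1 to 90 nt, 91 to 210 nt and beyond 210 nt. Of 144 pairs of gene and zone, 0 (0%) were called by edgeR, and 1 (0.694%), GLC7 at 91 to 210 nt, had an unadjusted p under 0.05. DESeq2 also called 0, with 3 at an unadjusted p under 0.05. The replicate numbers gave different pictures. In the second replicates, which share a name series, htz1 was below the wild type in 41 of 48 genes (85.4%) at 1 to 90 nt, with a median difference of -0.0582, in 40 (83.3%) at 91 to 210 nt, with -0.0344, and in 21 (43.8%) beyond, with 0.0006. In the first replicates htz1 was lower in 24 (50%), 22 (45.8%) and 25 genes (52.1%).

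Along the gene, the median difference of the second replicates was -0.0540 in the first 30 nt, -0.0657 at 91 to 120 nt and -0.0319 at 181 to 210 nt. It was -0.0041 at 241 to 270 nt and 0.0308 at 361 to 390 nt. The htz1 curve of the second replicate thus ran below the wild-type curve near the splice site and met it past about 240 nt. These fractions are the raw ones. In the zone test the median log2 odds ratio changed sign with the authors' corrected fraction, given below. The difference between the wild-type libraries had the same shape and was at least as large over this stretch, at -0.124 in the first 30 nt, -0.0842 at 91 to 120 nt and -0.0279 at 241 to 270 nt. In the first replicates the median was 0.0375 in the first 30 nt, -0.0319 at 61 to 90 nt and 0 at 91 to 120 nt. The early difference was therefore seen in 1 replicate number and was no larger than the difference between the wild-type libraries. The wild-type libraries bear different series names, and wild-type replicate 2 enters both differences. The gap between the wild-type libraries is therefore no measure of the spread within a name series.

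**Figure D2:**
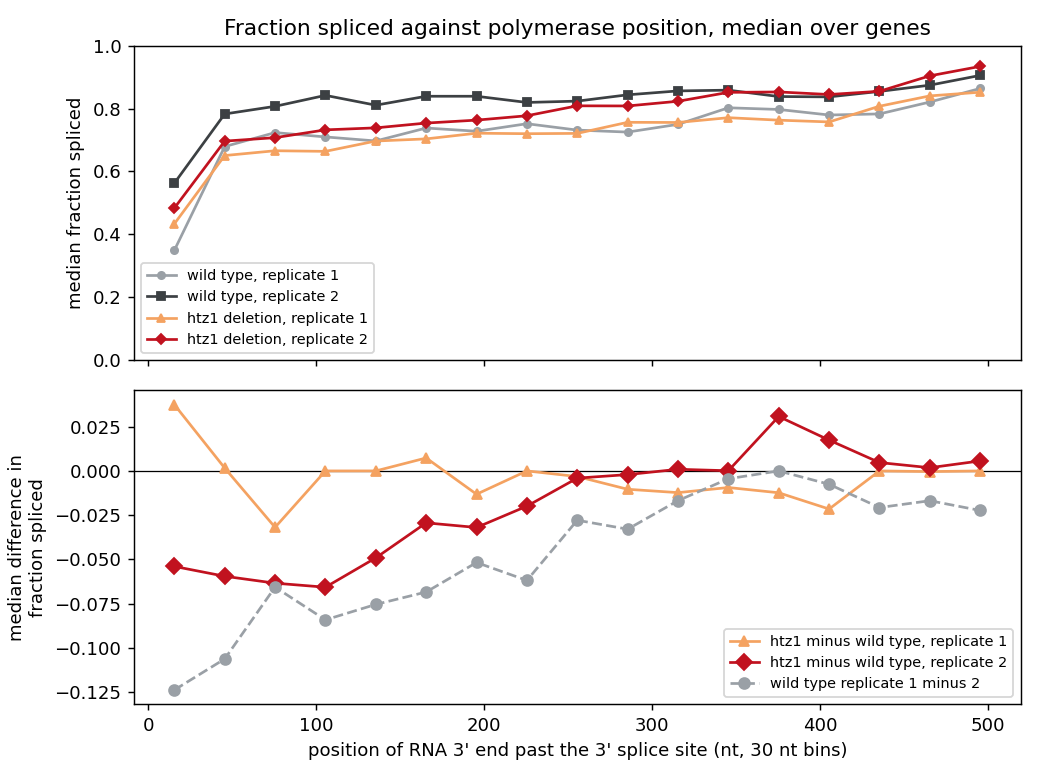
Upper panel: median fraction spliced over genes in 30 nt bins of RNA 3' end position, for the 4 libraries. Lower panel: median over genes of htz1 minus wild type in each replicate number, with the difference between the wild-type libraries dashed, where the second-replicate line starts at -0.0540 and reaches 0.0308 at 361 to 390 nt.

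The other deletion strains share these wild-type controls, and their own values are set beside those of htz1. At 1 to 90 nt the second replicate of npl3 was below that of the wild type in 30 of 48 genes with a median of -0.0069, and that of gbp2 in 30 genes with -0.0056. The second replicate of rtt103 was lower in 35 genes with -0.0455, near the value of -0.0582 for htz1, whereas that of tho2 was lower in 18 genes with 0.0110 and that of pub1 in 17 with 0.01. Without any wild-type library, htz1 replicate 2 was below npl3 replicate 2 in 35 genes (median -0.036) and below gbp2 replicate 2 in 37 genes (median -0.0453) in this zone. The first replicates went the other way: htz1 replicate 1 was above npl3 replicate 1 in 34 genes and above gbp2 replicate 1 in 30. Against both strains together, edgeR called 0 of 144 pairs of gene and zone (0%), with 1 (0.694%) at an unadjusted p under 0.05, a comparison added after the data were seen.

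In single genes the position of the difference varied. RPO26 had 22 bins of 30 nt with at least 10 reads in each of these 4 libraries, and both htz1 libraries were below both wild-type libraries in 16 of them. At 91 to 120 nt the RPO26 fractions were 0.392 and 0.490 in the wild type and 0.259 and 0.372 in htz1, and at 391 to 420 nt 0.659 and 0.726 against 0.456 and 0.530. RPO26 was thus lower over most of its length, with differences of -0.101 at 91 to 210 nt and -0.0932 beyond. In SEC27 the htz1 libraries were lower in 11 of 24 bins, and in ECM33 in 11 of 29. In the first 30 nt SEC27 had 0.785 and 0.842 in the wild type and 0.666 and 0.643 in htz1, and at 301 to 330 nt 0.933 and 0.900 against 0.841 and 0.906. In SEC27, SEC14 and ECM33 the second htz1 replicate was low near the splice site and met the wild type by about 300 nt, whereas the first stayed lower in most bins.

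UBC4 differed over most of its curve, but the second replicates parted only past about 90 nt. Both htz1 libraries were above both wild-type libraries in 16 of 20 bins and below in 0. In the first 30 nt UBC4 had 0.111 and 0.305 in the wild type and 0.554 and 0.273 in htz1, so that only htz1 replicate 1 stood above the wild type there. At 301 to 330 nt the UBC4 fractions were 0.436 and 0.460 against 0.833 and 0.642, and at 481 to 510 nt 0.717 and 0.686 against 0.946 and 0.842, with both htz1 libraries above. The plateau, the mean of the last 3 bins, was 0.788 and 0.686 for UBC4 in the wild type and 0.944 and 0.860 in htz1. PMI40 differed most in the first 30 nt, with 0.614 and 0.720 in the wild type against 0.981 and 0.818 in htz1, and was above the wild type in 14 of 25 bins. GLC7 had 0.928 and 0.962 in the first 30 nt of the wild type and 0.996 and 0.993 in htz1, and at 301 to 330 and 391 to 420 nt all 4 libraries were at 1.

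Other genes stood out in 1 zone. At 1 to 90 nt the largest differences of the same sign in both replicate numbers were those of IMD4, an IMP dehydrogenase (-0.142), SEC14 (-0.137), SEC27 (-0.125) and UBC13, a ubiquitin-conjugating enzyme of DNA damage tolerance (-0.121). UBC13 shows the spread behind such values, with 0.392 and 0.657 in the wild type and 0.361 and 0.446 in htz1, groups that overlap. UBC9, the SUMO-conjugating enzyme, had 0.272 and 0.311 against 0.335 and 0.334 in this zone, higher by 0.0432. At 91 to 210 nt the lower genes were BIG1, a protein of cell wall glucan synthesis (-0.110), SEC14 (-0.103), RPO26 and ECM33 (-0.0866), and the higher ones UBC4 (0.205), PMI40 (0.0489) and GLC7 (0.0071). Beyond 210 nt RPO26, YPR063C (-0.0569), PCC1, a subunit of the KEOPS complex of tRNA modification (-0.0409), and ECM33 (-0.0335) were lower. There UBC4 (0.232), UBC5, its close relative (0.138), SEC17, the SNAP protein of vesicle fusion (0.0789), and SAR1, the GTPase of COPII vesicles (0.0725), were higher. In UBC5 this zone had 0.602 and 0.539 in the wild type and 0.653 and 0.765 in htz1. Each of these had an adjusted p of 0.998 by edgeR.

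The position at which splicing reached 0.5 of its plateau lay in the first or second bin in most genes, so it could move little at this resolution. MAF1, the repressor of RNA polymerase III, was the only gene with the same sign in both replicate numbers, at 45.5 nt in both wild-type libraries and 75.5 nt in both htz1 libraries. The median difference over genes was 0 nt.

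The position of RNA 3' ends, which SMIT reads as polymerase position, gave a more uniform difference between the strains than the fraction spliced. In the median gene 34.6% and 38.7% of wild-type reads ended within 90 nt of the splice site, against 22.6% and 30.1% in htz1. Both htz1 libraries lay below both wild-type libraries in 39 of 48 genes (81.2%) and above in 0 (0%), and the share was lower in htz1 in 47 genes in the first replicates and in all 48 in the second. The median position of the RNA 3' end, taken over genes, was 134 and 123 nt in the wild type and 201 and 149.5 nt in htz1. The odds of a near 3' end had a median log2 ratio of -0.68, with 48 of 48 genes below 0, yet edgeR called 0 (0%). In simulated data, with 8 of 48 genes changed in random directions, this test recovered 6.88% of genes changed by a log2 ratio of 1. Changes of this size in single genes would mostly have been missed. That setting has no shift of the same sign in all genes, so it gives no recovery rate for such a shift. Only ARP2 and DTD1 (2 genes, 4.17%) had an unadjusted p under 0.05, and no adjusted p was below 0.337. With the replicate number as a block, edgeR called 41 genes (85.4%), all lower in htz1, with a smallest adjusted p of 0.0050. That block joins the first replicates, which the library names put in different series. DESeq2 called 0, with 4 at an unadjusted p under 0.05. The exact permutation test of the library medians gave p = 0.333 (two-sided, n = 2 against 2), the smallest this design allows.

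ARP2 (YDL029W, chromosome IV), a subunit of the complex that nucleates branched actin, had 28.4% and 20.2% of its reads near the splice site in the wild type and 10.4% and 17.4% in htz1, a log2 odds ratio of -1.02 ± 0.50 (SE). DTD1 (YDL219W, chromosome IV), an enzyme that removes D-amino acids from tRNA, had 30.9% and 35.2% against 17.5% and 22.7% (log2 -0.98). RFA2 had 26.8% and 34.1% against 16.6% and 21.4%. In these genes both htz1 libraries were the lower ones. RPL35A, which encodes a large-subunit ribosomal protein, had 50.4% and 68.4% against 32.0% and 54.5%, with the groups overlapping. ACT1 had 26.3% and 27.7% against 15.9% and 23.4%.

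**Figure D3:**
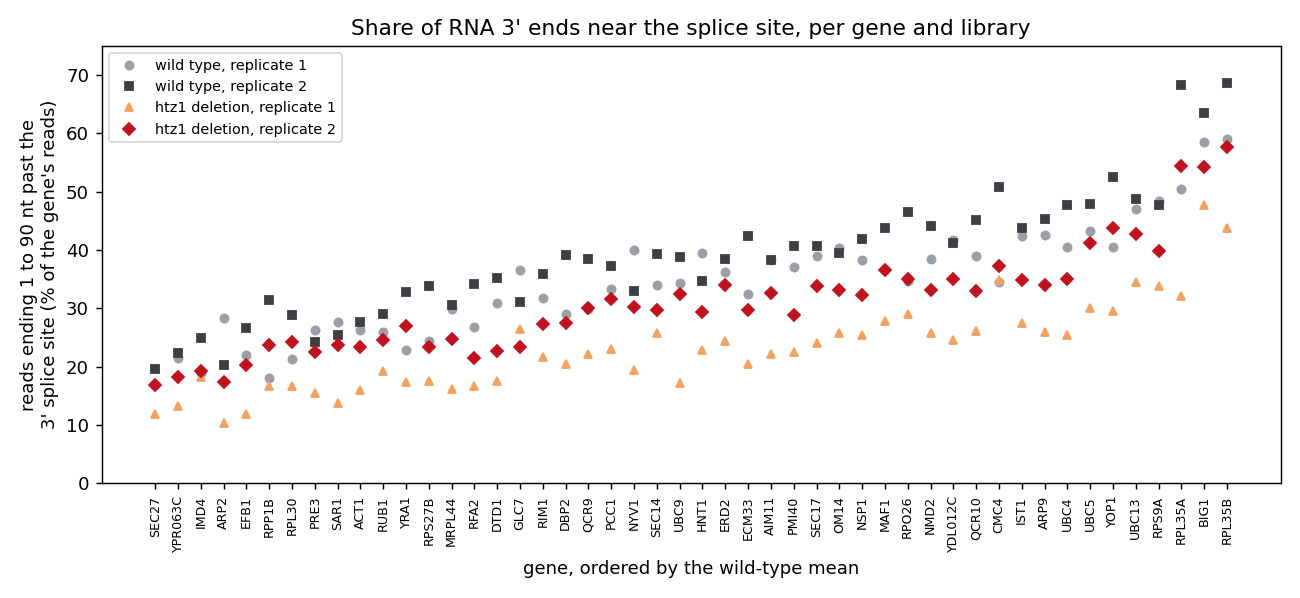
Share of each gene's reads that ended 1 to 90 nt past the 3' splice site (vertical axis, percent) in the 4 libraries, for 48 genes ordered by the wild-type mean. Both htz1 libraries lie below both wild-type libraries in 39 genes, and htz1 replicate 1 is the lowest library in most.

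Spliced and unspliced reads lay further out alike in htz1 replicate 1. Of the spliced reads in the median gene, 28.8% and 34.9% lay near the splice site in the wild type and 18.1% and 25.2% in htz1. Of the unspliced reads 46.2% and 51.4% lay there in the wild type and 32.4% and 45.3% in htz1. The spread over bins showed the same: the first 30 nt held 10.4% and 12.0% of a gene's reads on average in the wild type and 6.43% and 9.40% in htz1, and the bin of 421 to 450 nt held 2.08% and 1.57% against 3.98% and 1.99%. Replicate 1 of htz1 had the most distant 3' ends of the 4 libraries.

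**Figure D4:**
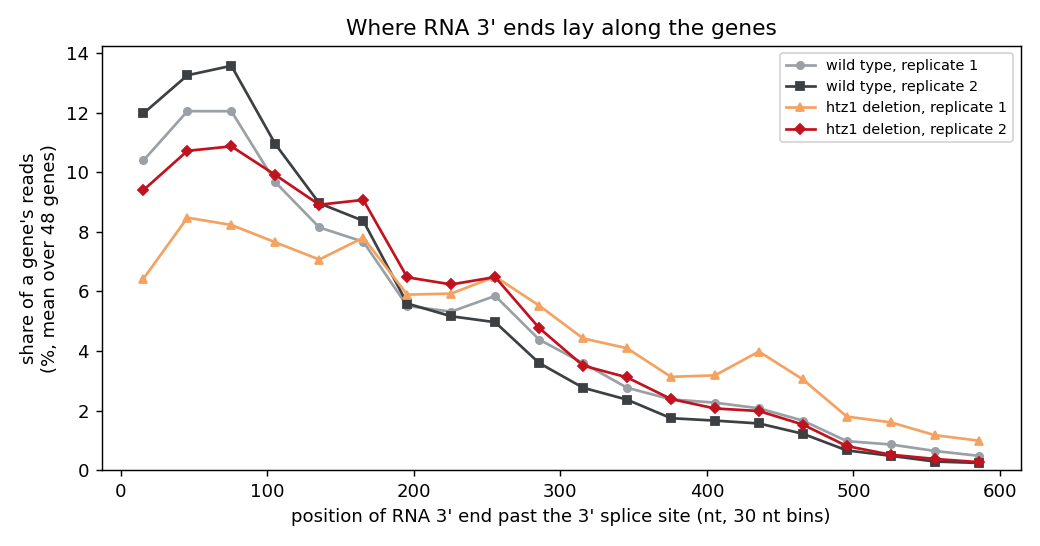
Share of a gene's reads (vertical axis, percent, mean over 48 genes) in each 30 nt bin of RNA 3' end position, for the 4 libraries. In the first 30 nt the wild type holds 10.4% and 12.0% and htz1 6.43% and 9.40%, and htz1 replicate 1 is the highest line past 300 nt.

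Most other deletion libraries also had lower shares than the wild type. For npl3 the median gene had 25.4% and 30.1% of its reads within 90 nt, for gbp2 25.2% and 37.6%, for rtt103 23.6% and 34.7%, for tho2 23.5% and 30.3% and for pub1 21.2% and 33.8%, with the first replicate lower in each strain. The second replicates of gbp2 and rtt103 lay above wild-type replicate 1. By gene, the second replicates of tho2 and pub1 were below wild-type replicate 2 in 48 of 48 genes, as that of htz1 was. The second replicate of npl3 was lower in 47, that of rtt103 in 41 and that of gbp2 in 26. Library series thus moves with this measure, and so does the authors' correction factor on the splicing odds, given below. With the name series as a term in the fit, the median log2 odds ratio of htz1 against the wild type was -0.47, with 48 of 48 genes below 0, 14 at an unadjusted p under 0.05 and 0 called by edgeR. Against npl3 and gbp2, which match htz1 in name series in both replicate numbers, the median log2 odds ratio was -0.24 with 46 genes below 0, and edgeR called 0 of 48 (0%), with 1 (2.08%) at an unadjusted p under 0.05, in a comparison added after the data were seen. Within each replicate number, htz1 was below the mean of npl3 and gbp2 in 44 genes (91.7%), by a median of 2.86 percentage points in the first and 3.67 in the second. In the second replicates it was below gbp2 in 48 genes and below npl3 in 25. Without htz1 replicate 1 the fitted median was 0.07 with 18 genes below 0, in a fit that sets the second htz1 replicate against both name series. In this comparison the replicate number marks the name series, and with it as a block 1 gene (2.08%) was called lower, SEC17, with a log2 odds ratio of -0.93 ± 0.23 (SE, adjusted p = 0.0205 by edgeR). SEC17 had 24.1% and 33.8% in htz1, 54.9% and 50.3% in npl3 and 27.9% and 41.8% in gbp2, so the distance was mainly to npl3.

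The reads each gene contributed to its library, normalised by TMM, did not separate the strains by the test: 0 of 48 genes (0%) were called by edgeR, with 2 (4.17%) at an unadjusted p under 0.05, and the smallest adjusted p was 0.605. DESeq2 called 0, with 4 at an unadjusted p under 0.05. QCR10, a subunit of the respiratory cytochrome bc1 complex, held 0.600% and 0.188% of reads in the wild type and 0.215% and 0.220% in htz1. YDL012C held 1.70% and 0.745% against 0.607% and 0.772%. In both the htz1 libraries were close to wild-type replicate 2 and far from replicate 1, and without wild-type replicate 2 edgeR called QCR10 lower (adjusted p = 0.0065). Of the genes with the same sign in both replicate numbers, RPL35B (log2 -0.62), ERD2, which retrieves escaped proteins of the endoplasmic reticulum (-0.52), UBC13 (-0.40) and RPL35A (-0.39) held fewer reads. RPL35A and RPL35B, like UBC4 and UBC5, are close copies, and their values are uncertain as far as reads could be assigned to either. ECM33 (0.41), PRE3 (0.38), UBC5 (0.35) and UBC9 (0.34) held more. The groups did not overlap in ECM33, PRE3 and UBC9, the last with 0.799% and 0.751% in the wild type and 1.05% and 1.00% in htz1. Over all 48 genes, both htz1 libraries had a larger share of reads than both wild-type libraries in 4 genes and a smaller share in 5.

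Splicing was also compared with npl3 and gbp2, free of the wild-type libraries. Of 48 genes 0 (0%) were called by edgeR and 0 by DESeq2, with 1 gene (2.08%), DBP2, an RNA helicase, at an unadjusted p under 0.05 by edgeR and 1 by DESeq2. DBP2 was spliced to 0.998 or more in all 6 libraries, and its log2 odds ratio of 2.67 ± 0.99 (SE, adjusted p = 0.998 by edgeR) rests on few unspliced reads. The largest lower fractions were those of MAF1 (-0.0858), YOP1, a protein that shapes the endoplasmic reticulum (-0.0585), RPP1B (-0.0371) and IMD4 (-0.0257). MAF1 had 0.342 and 0.352 in htz1, 0.453 and 0.490 in npl3 and 0.383 and 0.405 in gbp2, so both htz1 libraries were below the other 4. The largest higher fractions were those of RPS9A, a ribosomal protein (0.0877), SEC17 (0.0788), ARP9, a subunit of chromatin remodellers (0.0767), and UBC4 (0.0715). RPS9A had 0.864 and 0.980 in htz1, 0.528 and 0.969 in npl3 and 0.861 and 0.980 in gbp2, so its difference came from npl3 replicate 1. RPO26, lower than the wild type, had 0.523 and 0.705 in npl3 and 0.557 and 0.661 in gbp2 and did not stand apart from these strains.

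By function, no group of genes had a called member for splicing, against 0 of 48 over all genes. Beside the median difference of -0.0125 for all genes, the 5 ribosomal protein genes of the RPL and RPS families had a median of -0.0125 with 3 lower in both replicate numbers. Their most read member, RPL30, had 0.866 and 0.933 in the wild type and 0.739 and 0.939 in htz1. RPP1B, of the ribosomal stalk, was not on this list. The 6 ubiquitin and proteasome genes had a median of -0.0273 with 2 lower (RUB1, PRE3) and 1 higher (UBC4) in both numbers. The 8 membrane traffic genes had -0.0287 with 3 lower, of which SEC27 was the most read. The 6 transcription and chromatin genes had -0.0184 with 2 lower, RPO26 and RFA2. The 6 mitochondrial genes had 0.0139 with 1 lower, and OM14, of the outer membrane, had 0.652 and 0.807 in the wild type and 0.818 and 0.742 in htz1. The 4 genes of RNA processing and export (-0.0013), the cytoskeletal genes ACT1 and ARP2 (-0.0053), the snoRNA hosts EFB1 and IMD4 (-0.0218) and the 3 tRNA-related genes (0.0075) had no member whose groups stood apart. EFB1, the translation elongation exchange factor, had 0.977 and 0.986 in the wild type and 0.997 and 0.982 in htz1, and PCC1 had 0.488 and 0.549 against 0.506 and 0.444. For the share of 3' ends near the splice site, the medians of these groups lay between -5.67 and -11.3 percentage points, beside -9.90 for all genes.

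The deposited files also hold a fraction spliced that the authors corrected, by a factor on the odds that is constant within a gene and library. The median factor was 0.566 and 0.528 in the wild type and 0.781 and 0.674 in htz1, so the correction lowered the wild type more. In every deletion strain the first replicate had the larger factor, as in npl3 (0.746 and 0.628) and gbp2 (0.741 and 0.585). Those first replicates also had the lower share of 3' ends near the splice site. The cause of this relation was not tested. With it the median difference turned to 0.0222, and 16 genes were higher and 4 lower in both replicate numbers. UBC4 had corrected fractions of 0.410 and 0.442 in the wild type and 0.791 and 0.590 in htz1, and RPO26 0.679 and 0.656 against 0.601 and 0.608. Both kept their direction and did not overlap between strains. SEC27, at 0.787 and 0.772 against 0.738 and 0.779, overlapped after correction, and so did YPR063C. Over 48 genes, both htz1 libraries lay below both wild-type libraries in 1 gene, RPO26, and above in 9, against 4 and 3 by the raw fraction. The genes above were UBC4, PMI40 and GLC7, as by the raw fraction, with EFB1, SAR1, SEC17, UBC5, YOP1 and YRA1. ECM33, PRE3 and ACT1, lower by the raw fraction, had corrected differences of 0.0113, 0.0036 and 0.0151, the opposite sign. The test on corrected reads called 0 of 48 genes, with 39 log2 odds ratios above 0 and a median of 0.39. For pairs of gene and zone it called 0 of 144, with 94 log2 odds ratios above 0 and a median of 0.18. With raw reads 54 were above 0 and the median was -0.15. The direction of the zone result therefore depended on the correction.

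The authors' deposited table of splicing differences per gene, whose scale is not stated, gave htz1 a median score of 0.230 over 49 genes in replicate 1 and -0.102 over 50 genes in replicate 2. In the authors' deposited table many genes carry exactly the score of a neighbouring row: 17 of the 49 genes in replicate 1 and 30 of the 50 in replicate 2 share a value. GLC7 and AIM11, which lie in adjacent rows, have the same score in both replicates of the authors' deposited table. Over the genes with a score of their own, the authors' deposited table gave medians of 0.198 (n = 32) and -0.103 (n = 20). The authors' deposited table left 14 genes with a score of their own in both replicates, of which 4 were above 0 in both, ECM33, PMI40, RPS9A and UBC4, and 2 below 0 in both, RFA2 and RPO26. The authors' deposited table gave UBC4 scores of 0.887 and 0.267 and RPO26 scores of -0.156 and -0.180.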

How the data were processed

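The members and gene lists were chosen with earlier results of these data known. Per the file headers, the authors deposited for each gene and RNA 3' end position a read count, a raw fraction spliced and a corrected fraction; the correction method is not given in the sources used here. The authors' deposited difference score has no stated scale. Build sacCer3 and the tools cutadapt 1.9.1, HISAT2 2.1.0, bedtools 2.29.2 and SAMtools 1.9 come from the submitters' processing notes, and removal of PCR copies is not stated. Per the labels' protocols, poly(A) RNA was depleted and gene-specific primers amplified the cDNA, so reads per gene depend on primers. No sequences were used here.

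Raw fraction times count gave whole spliced reads at every position (tolerance 1e-06). All 53 locus tags were named from the RefSeq gene table. Genes needed 20 reads in every library and positions reaching 200 nt; NOG2, RPL20A, RPS13, RPS9B and SAC6 were not listed in every library. Spliced and unspliced counts at positions above 0 were tested with edgeR 4.0.16 (quasi-likelihood, 1 term per library, all 14 deletion-series libraries, Benjamini-Hochberg at 0.05), with DESeq2 1.42.0 and limma 3.58.1 as alternatives in R 4.3.3. Fractions used 30 nt bins with at least 10 reads in all 14 libraries. Curves of single genes and medians by bin used bins with at least 10 reads in the 4 wild-type and htz1 libraries. Tests were run on simulated data in 20 draws, with 8 of 48 genes or 24 of 144 pairs of gene and zone changed in random directions. Position tests recovered 6.88% of genes changed by log2 1 and 88.1% of those changed by log2 2. Read tests recovered 32.5% and 96.9%. At log2 2, zone tests recovered 2.29% and the contrast with npl3 and gbp2 18.8%. Values and figures were made in Python 3.11.15 with pandas 2.3.3, numpy 2.4.6, matplotlib 3.10.9 and SciPy 1.17.1.

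Named genes were those past a test, those with an unadjusted p under 0.05, the largest differences of equal sign in both replicate numbers (10 per direction for genes, 4 for zones, 3' ends, reads and half-maximal positions), the 4 largest per direction against npl3 and gbp2, ACT1 and the most read gene of each list. AIM11 was named after its values were seen.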

Additional observations from a re-analysis of the deposited data

How the results depend on the processing

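Over 68 results, 769 alternatives were computed, 27 of them chosen after the data were seen. Of the alternatives for main results 83 stayed within the bounds used for a change and 6 moved, and of those for single genes 643 stayed and 37 moved. The count of genes called for splicing was 0 under every alternative run, in all 4 comparisons of splicing. With the replicate block the test of polymerase position called 41 genes, all lower in htz1, against 0 without it. For the log odds of splicing per gene, the deviations of the replicates from their strain means correlated at 0.129 between the wild type and htz1. Over all 21 strain pairs these correlations lay between 0.129 and 0.912. They were not computed for polymerase position. The labels tie only the second replicates of the wild type and htz1 together. With the name series as a block the position test called 0 genes (smallest adjusted p = 0.0723 by edgeR). For splicing per gene the replicate block called 0 genes with a smallest adjusted p of 0.284. Against npl3 and gbp2 the position test called 1 gene, SEC17, with the replicate block and 1 with the name series as a block. Reads per gene had 0 to 1 calls when each library was left out, with the 1 call, QCR10, without wild-type replicate 2. The median change of -0.0125 ranged from -0.0455 without wild-type replicate 1 to 0.0118 without htz1 replicate 1, and was 0.0222 with the authors' corrected fraction. Of the 14 genes named for their fraction, 3 changed sign with the corrected fraction (ECM33, PRE3, ACT1), 3 without htz1 replicate 1 (SEC14, PRE3, ACT1) and 1 without wild-type replicate 2 (ACT1). The median of the log2 odds ratios for splicing ranged from -0.41 without wild-type replicate 1 to 0.32 without wild-type replicate 2. The cause of these changes was not tested. The number of libraries, 2 per strain, limits these comparisons.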

Other observations

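Genes left out of the tests, because they were not listed in every library, were measured in some of these 4 libraries. RPS9B, a ribosomal protein gene, had position-averaged fractions of 0.994 and 0.988 in htz1 replicates 1 and 2 and 0.989 in wild-type replicate 2. SAC6, which encodes the actin-bundling protein fimbrin, had 0.712 and 0.584 in htz1 and 0.644 in wild-type replicate 2, so the wild-type value lay between them. RPS13 had 0.942 in htz1 replicate 1 and 0.982 in wild-type replicate 1. NOG2, a ribosome assembly GTPase, had 0.9999 in htz1 replicate 1 and 0.9992 in wild-type replicate 2. RPL20A was listed in wild-type replicate 1 alone among these libraries, at 0.987.

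The equal scores in the authors' deposited table lie in consecutive rows: 9 rows in replicate 1 and 17 in replicate 2 equal the row before. Over genes with a score of their own, the authors' deposited table and the difference of corrected fractions correlated across genes at r = 0.868 (n = 30) in replicate 1 and 0.852 (n = 19) in replicate 2. With the genes of shared scores included, the authors' deposited table gave r = 0.804 (n = 47) and 0.467 (n = 48). Genes are not independent replicates, and both measures come from the same reads.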
